A study of Mus musculus with 2 samples.

Results

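The interleukin-17 program of T cells was followed through 8 genes that were chosen by name. *Il17a*, *Il17f* and *Il22* encode secreted cytokines, *Il17ra*, *Il23r* and *Ccr6* encode receptors, and *Blk* and *Scart1* mark the gamma-delta T cells that are committed to interleukin-17 (IL-17). They were 8 of the 33696 genes in the count tables, and all of them were matched by gene symbol. The scRNA-seq data came from live CD45+ cells sorted from the thalamus of C57B6/J mice, 12 weeks old, on day 21 after unilateral cortical ablation injury (CAI), a surgical removal of the primary sensory and motor cortex. One library came from mice given control Ab (normal rat IgG) and one from mice given anti-CD9 Ab (rat clone KMC8), so that there was 1 library per antibody. Both antibodies were injected into the thalamus through an implanted cannula from day 7 to day 19, at 1.0 µg/µl. Both groups therefore carried the injury, the cannula and repeated injections of rat IgG, and no sham group was part of these libraries. For the thalamus, the methods describe pools of 4 mice per library, without repeating the number for the antibody groups. The comparison addresses which thalamic cells carried the IL-17 program when CD9, a surface tetraspanin of microglia, macrophages and other cells, was targeted.

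IL-17A and IL-17F are released by type 17 helper T cells and by gamma-delta T cells that acquire this capacity in the thymus. Both cytokines bind receptors that contain IL-17RA on stromal, glial and myeloid cells, where the adaptor Act1 (*Traf3ip2*) passes on the signal and chemokine genes that draw neutrophils are switched on. IL-1β and IL-23 induce the cytokines in these T cells, and gamma-delta T cells of this kind reside in the meninges and at barrier surfaces.

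The stretches before the start sites of both ligand genes are shown because *Il17a* and *Il17f* carry the differences described below. The sequences are from RefSeq on build GRCm38.p6, whereas the submitters' processing notes name GRCm39 for the counts. *Il17a* lies on the plus strand (chr1:20730655-20730904) and *Il17f* on the minus strand (chr1:20784271-20784520). Capitals mark the letters AGGTCA, or TGACCT on the opposite strand, a core that many nuclear receptors can bind.
Il17a: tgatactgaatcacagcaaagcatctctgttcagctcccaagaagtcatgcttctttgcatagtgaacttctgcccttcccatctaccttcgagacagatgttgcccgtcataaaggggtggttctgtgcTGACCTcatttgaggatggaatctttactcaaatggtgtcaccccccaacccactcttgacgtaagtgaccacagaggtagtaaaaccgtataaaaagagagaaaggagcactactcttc
Il17f: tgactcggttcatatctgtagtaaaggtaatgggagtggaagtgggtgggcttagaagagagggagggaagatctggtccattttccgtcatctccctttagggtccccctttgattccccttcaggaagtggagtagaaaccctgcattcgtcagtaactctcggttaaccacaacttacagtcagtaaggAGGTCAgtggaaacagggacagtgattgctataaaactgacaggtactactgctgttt
The motif began 120 bases before the *Il17a* start site, on the opposite strand, and 58 bases before that of *Il17f*, on the given strand. In windows of 300 bases (250 before and 50 after a start site), *Il23r* held it at 229 and 66 bases before the start and *Ccr6* at 44 bases, in 1 of 2 windows listed for that gene. No match lay in the windows of *Il22* and *Scart1*. The table held windows for 6 of the 8 members, and *Il17ra* and *Blk* were not among them. Of all 32851 windows, 5340 (16.3%) held the motif, so that a match is a description of these letters only.

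The files held 12245 barcodes and 38042608 unique molecular identifiers (UMIs) under control Ab, and 15173 barcodes and 40825201 UMIs under anti-CD9 Ab. The quality limits kept 7467 and 9162 cells, with a median of 1880 and 1419 UMIs per cell. The libraries shared 54 barcode sequences. They differed in makeup: neutrophil-like cells were 0.817% of kept cells under control Ab and 28.3% under anti-CD9 Ab, and microglia-like cells 25.8% and 9.56%. Although CD45 was the sorting marker, 431 and 78 of the kept cells were astrocyte-like and 303 and 93 oligodendrocyte-like. In what follows, UMIs were summed over the cells of a class and divided by all UMIs of that class, on the usual CPM scale. A log2 ratio is the CPM under anti-CD9 Ab over that under control Ab. Brackets after a level, ratio or share hold its 95% interval (exact Poisson for sums, exact binomial for shares), which covers counting error only. With a single library on each side no test could be made, and an effect of the antibody cannot be told apart from a difference between pools of mice or between library preparations.

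Gamma-delta-like cells were 1264 cells under control Ab (16.9% of kept cells) and 316 under anti-CD9 Ab (3.45%), in 2 sub-clusters. Their numbers depended on the mitochondrial limit of 2%. With up to 5% they were 2422 of 11690 kept cells under control Ab and 881 of 14455 under anti-CD9 Ab. The sub-clusters were named from a list that holds *Trdc*, *Trdv4* and *Trgv6*, so that these are a description and no check of the name. *Trdc*, the constant region of the delta chain, had a UMI in 94.9% and 98.1% of the cells, *Cd3e* in 85.9% and 88.9%, *Cd4* in 1.34% and 1.27%, and *Cd8a* in 0.475% and 0%. Other genes of the CD4 and CD8 marker lists were detected too, with *Icos* in 42.2% and 58.9%, *Ctla4* in 9.34% and 35.1%, *Nkg7* in 2.45% and 14.9% and *Klrd1* in 1.42% and 5.70% of the cells. *Trac*, the constant region of the alpha chain, had a UMI in 18.6% and 27.2%, against 78.2% and 74.2% of CD4-like cells. Among the variable segments, *Trdv4* was detected in 24.0% and 42.4% of the cells and *Trgv6*, the gamma segment of thymus-programmed IL-17 producers, in 13.1% and 20.3%. These shares of cells with a UMI were taken at full depth, which differed between the libraries. By level, *Trdv4* was at 190 and 230 CPM, a log2 ratio of 0.28 (0.03 to 0.52). *Trgv6* was at 94.4 and 81.3 CPM, a ratio of −0.21 (−0.62 to 0.18). The median depth was 1534 UMIs per cell under control Ab and 2631 under anti-CD9 Ab, and the median mitochondrial share was 1.09% and 1.56%. Macrophage markers summed to 918 and 1310 CPM in these cells and microglia markers to 380 and 147 CPM, and the part of these differences in the results below was not tested. CD4-like cells numbered 1322 and 504, with *Cd4* in 32.0% and 34.5% of them and *Trdc* in 3.63% and 2.38%. No sub-cluster took the name of CD8 T cells, and CD8-like cells were therefore gated within the NK cell-like and unnamed T sub-clusters. They were 220 and 61 cells with a *Cd8a* or *Cd8b1* UMI and no *Trdc* or *Cd4* UMI. Those genes are therefore no check of this class. Cells with a *Cd8a* or *Cd8b1* UMI in the gamma-delta-like and CD4-like sub-clusters were not taken in. Gamma-delta-like cells were 42.4% (40.6 to 44.2) of 2984 T cell-like cells under control Ab and 32.3% (29.4 to 35.4) of 977 under anti-CD9 Ab.

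*Il17a*, the signature cytokine of the program, was about 10 times higher in gamma-delta-like cells under anti-CD9 Ab. The 1264 cells under control Ab held 627 *Il17a* UMIs, or 304 CPM (280 to 328). The 316 cells under anti-CD9 Ab held 2781 UMIs, or 3057 CPM (2945 to 3173). The level was 10.1-fold higher, a log2 ratio of 3.33 (3.21 to 3.46). These intervals treat UMIs as independent, although 5 cells held 59.3% of them under anti-CD9 Ab, and they do not measure the spread between cells. Among 7223 genes with 50 or more UMIs in these cells, *Il17a* ranked 8 from the top by its ratio. The log2 ratio was 3.26 in the larger sub-cluster (823 and 238 cells) and 3.59 in the other (441 and 78 cells). Both values include single cells with many UMIs under anti-CD9 Ab. Cells with 547, 390, 167, 147 and 122 *Il17a* UMIs lay in the larger sub-cluster, and cells with 399 and 109 in the other.

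In CD4-like cells the direction was the opposite. *Il17a* was at 212 CPM (194 to 231) under control Ab, from 512 UMIs, and at 107 CPM (88.6 to 129) under anti-CD9 Ab, from 115 UMIs. The log2 ratio was −0.98 (−1.29 to −0.69). Most of these UMIs lay in 1 of 2 CD4-like sub-clusters, at 243 and 132 CPM. The other sub-cluster held 11 and 1 UMIs. It was led by *Frmd5*, *Nckap5* and *Itgb8*, with *Foxp3*, the factor of regulatory T cells, next. CD8-like cells, gated outside the gamma-delta-like and CD4-like sub-clusters, held 0 *Il17a* UMIs in both libraries. This allows a share of cells with a UMI of up to 1.66% of 220 cells and 5.87% of 61 cells. With up to 5% mitochondrial counts the class had 592 and 234 cells, which held 44 and 27 *Il17a* UMIs. They also held 365 and 111 *Scart1* UMIs and 137 and 44 *Blk* UMIs. The class as reported held 3 and 0 *Scart1* and 1 and 0 *Blk* UMIs. Whether gamma-delta T cells entered the class with the 5% limit was not tested. With a UMI gate in place of the sub-clusters the class held 2 and 2 *Il17a* UMIs.

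**Figure D1:**
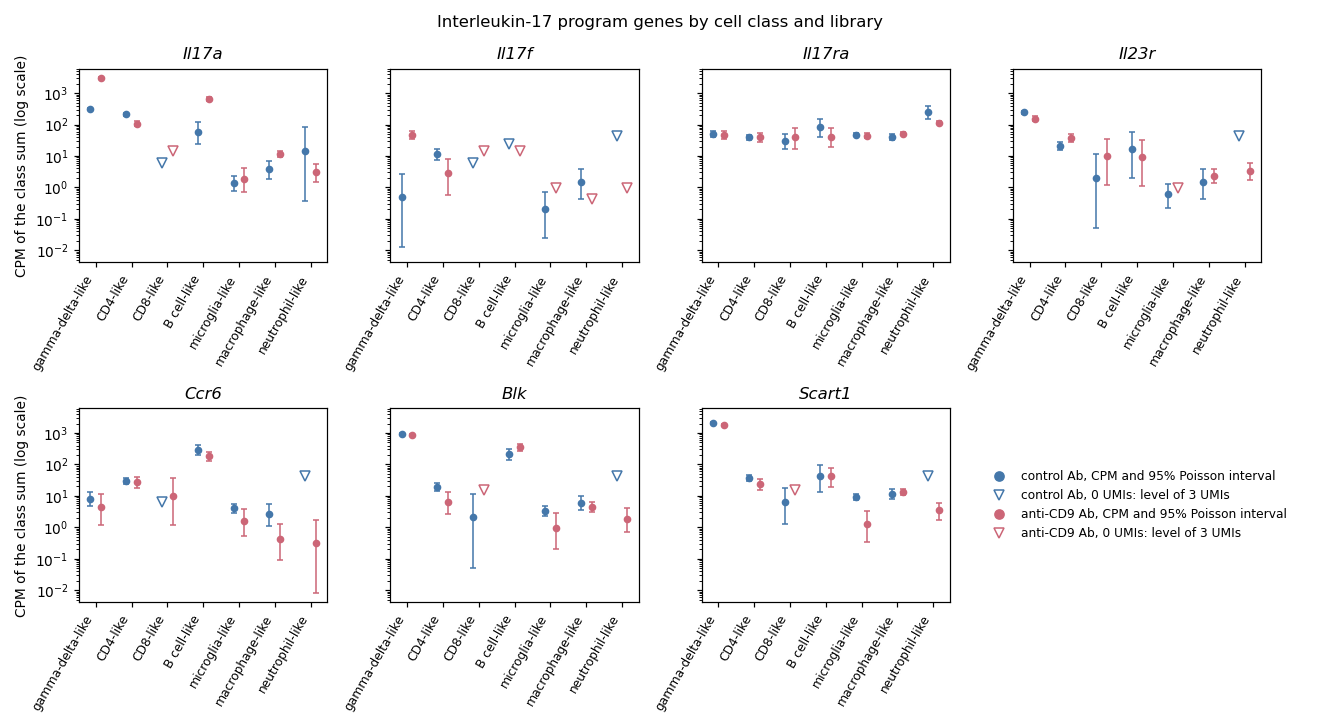
Level of 7 genes of the program (CPM of the class sum, log scale) in 7 cell classes, under control Ab in blue and anti-CD9 Ab in red. Points are sums over 1 library with 95% Poisson intervals, and open triangles mark classes with 0 UMIs at the level of 3 UMIs. *Il17a* in gamma-delta-like cells stands at 304 and 3057 CPM, while *Il17ra* lies between 30.9 and 251 CPM in all of the classes drawn.

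A larger share of gamma-delta-like cells had *Il17a* under anti-CD9 Ab, from fewer cells (330 and 131), and the cells that had it held more. Without thinning, 26.1% of gamma-delta-like cells under control Ab and 41.5% under anti-CD9 Ab had at least 1 *Il17a* UMI. After each cell was thinned to 1000 UMIs, the shares were 19.9% (17.7 to 22.4) of 1173 cells and 29.7% (24.6 to 35.2) of 303 cells, with 91 and 13 shallower cells left out. In CD4-like cells the thinned shares were 8.61% (7.08 to 10.3) and 3.79% (2.26 to 5.92). Microglia-like cells, which should lack the gene, had 0.212% and 0.234% at median depths of 3124.5 and 3355.5 UMIs before thinning, so that the shares in both T cell classes lay above this background. At equal depth, 10 or more *Il17a* UMIs were found in 1 of 1173 gamma-delta-like cells under control Ab and in 13 of 303 under anti-CD9 Ab.

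The excess was concentrated in few cells. Among cells with *Il17a*, the median was 1 UMI under control Ab and 3 under anti-CD9 Ab. The 5 highest cells under control Ab held 17, 16, 11, 10 and 8 UMIs, 9.89% of the class total. The 5 highest cells under anti-CD9 Ab held 547, 399, 390, 167 and 147 UMIs, 59.3% of the total. Without the 5 highest cells of each library the log2 ratio was 2.22 (2.07 to 2.36), without the 10 highest 1.59 (1.43 to 1.76), and without the 20 highest 0.96 (0.76 to 1.16). The difference kept its sign and became smaller. The cells left out were chosen by *Il17a* itself, and equal numbers were taken from 1264 and 316 cells. Part of the smaller ratio is therefore built in, and how much was not tested. In CD4-like cells, leaving out the 5 highest cells of each library took the ratio from −0.98 to −1.76 (−2.23 to −1.31).

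**Figure D2:**
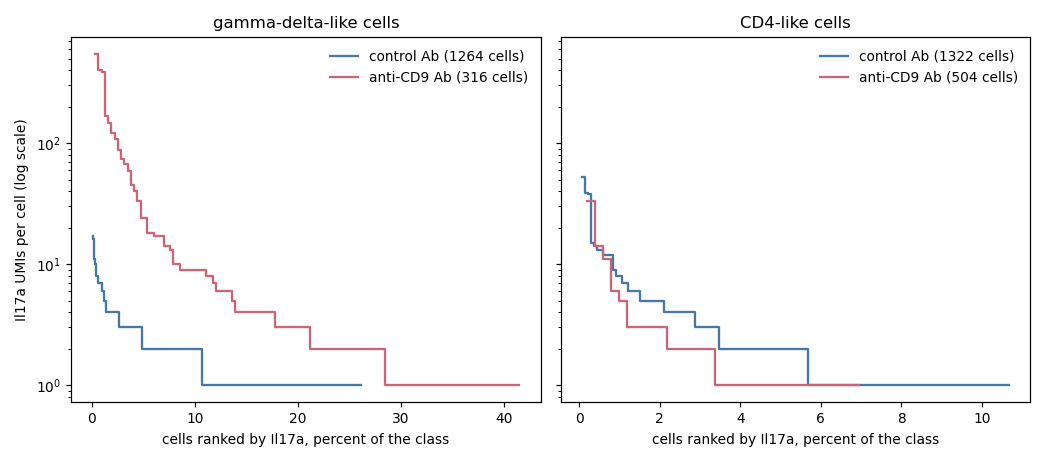
*Il17a* UMIs per cell (log scale, not thinned) of all cells with at least 1 UMI, ranked within each library and placed by percent of the class, for gamma-delta-like cells (left) and CD4-like cells (right). The anti-CD9 Ab curve of gamma-delta-like cells starts at 547 UMIs and reaches 41.5% of the cells, and the control Ab curve starts at 17 and ends at 26.1%; in CD4-like cells the curves start at 33 and 52 UMIs.

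A group of 7 gamma-delta-like cells, all under anti-CD9 Ab, held 100 or more *Il17a* UMIs each, and no gamma-delta-like cell under control Ab did. They carried 1881 of the 2781 *Il17a* UMIs of their class and 43 of its 43 *Il17f* UMIs. In the highest cell, *Il17a* was 10.1% of all UMIs. Their depth, 3509 to 6171 UMIs, was above the class median of 2631, and 1 of the 7, the cell with 547 *Il17a* UMIs, was a predicted doublet. Without all predicted doublets the log2 ratio of the class was 3.03. *Trdc* was detected in 7 of them, *Scart1* in 6, *Gzmb* (granzyme B) in 6, *Il1r1* in 5, *Il17f* in 4, *Blk* in 3, *Il23r* in 2, *Cd4* in 1 and *Ifng* (interferon-γ) in 0.

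*Il17f*, the close relative encoded beside *Il17a*, was placed differently in the libraries. Under control Ab, gamma-delta-like cells held 1 of 39 *Il17f* UMIs in kept cells, and CD4-like cells 28. Under anti-CD9 Ab, gamma-delta-like cells held 43 of 65, in 4 cells, and CD4-like cells 3. In gamma-delta-like cells this was 0.484 and 47.3 CPM, with an interval of the log2 ratio from 4.05 to 11.95 because of the single control UMI. In CD4-like cells it was 11.6 and 2.80 CPM, a log2 ratio of −2.05 (−4.41 to −0.35), so that both ligands were higher in gamma-delta-like cells and lower in CD4-like cells. In CD4-like cells the *Il17f* ratio was −0.88 (−1.80 to −0.04) with up to 5% mitochondrial counts and −1.33 (−3.79 to 0.56) with the UMI gate. *Il22*, a cytokine of type 17 and innate lymphoid cells, was hardly detected, with 2 UMIs in kept cells under control Ab and 4 under anti-CD9 Ab, and no comparison was possible at this depth.

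Among the receptors, *Il23r*, which encodes the chain specific to the IL-23 receptor, was lower in gamma-delta-like cells under anti-CD9 Ab. It was at 243 CPM (222 to 265) under control Ab, from 502 UMIs, and at 155 CPM (130 to 183) under anti-CD9 Ab, from 141 UMIs. The log2 ratio was −0.65 (−0.93 to −0.38), and the thinned share of cells with a UMI was 17.3% (15.2 to 19.6) and 10.6% (7.34 to 14.6). In CD4-like cells *Il23r* was higher instead, at 20.7 and 38.3 CPM, a log2 ratio of 0.89 (0.26 to 1.51) from 50 and 41 UMIs. The thinned shares there, 1.84% and 1.68%, did not show this difference. With up to 5% mitochondrial counts the ratio was 0.23 (−0.16 to 0.61), and with a UMI gate in place of the sub-clusters 0.47 (−0.72 to 1.64), so that the interval then spanned 0. *Ccr6*, the receptor for the chemokine CCL20, was found mainly outside gamma-delta-like cells, which held 17 and 4 of its 201 and 156 UMIs in kept cells. Its log2 ratio had an interval that spanned 0 in gamma-delta-like cells (−2.93 to 0.71), in CD4-like cells (−0.81 to 0.50) and only just in B cell-like cells (−1.38 to 0.02), where 35 and 39 UMIs were counted.

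*Il17ra*, the receptor chain that many cell types carry, had ratios whose intervals spanned 0 in T cells. In gamma-delta-like cells it was at 50.8 CPM (41.6 to 61.5) and 47.3 CPM (34.2 to 63.7), a log2 ratio of −0.10 (−0.65 to 0.42). In CD4-like cells it was at 38.9 and 39.2 CPM, a ratio of 0.01 (−0.55 to 0.55), and in CD8-like cells at 30.9 and 39.7 CPM, from 15 and 8 UMIs (ratio 0.36, −1.08 to 1.69).

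*Blk*, a Src family kinase shared by B cells and IL-17-committed gamma-delta T cells, and *Scart1*, a scavenger receptor of the latter, were both slightly lower in gamma-delta-like cells. *Scart1* was at 2137 CPM (2075 to 2201) under control Ab and 1797 CPM (1711 to 1887) under anti-CD9 Ab. Its log2 ratio was −0.25 (−0.33 to −0.17). *Blk* was at 940 CPM (899 to 983) and 861 CPM (801 to 923), a ratio of −0.13 (−0.25 to −0.01). The median ratio of all 9441 genes with 20 or more UMIs in these cells was −0.11, so that *Blk* stood near it. After thinning, *Scart1* was detected in 81.5% (79.2 to 83.7) and 75.2% (70.0 to 80.0) of the cells and *Blk* in 60.4% (57.5 to 63.2) and 54.1% (48.3 to 59.8). The markers of commitment were thus found in most gamma-delta-like cells of both libraries. In CD4-like cells *Blk* was low, with 46 and 7 UMIs, and *Scart1* had 90 and 25.

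Within gamma-delta-like cells thinned to 1000 UMIs, cells with and without *Il17a* were set side by side as a description. Under control Ab, *Scart1* was detected in 80.8% of 234 cells with *Il17a* and 81.7% of 939 without, *Blk* in 67.1% and 58.7%, and *Il23r* in 21.4% and 16.3%. Under anti-CD9 Ab, *Scart1* was detected in 68.9% of 90 cells with *Il17a* and 77.9% of 213 without, *Blk* in 64.4% and 49.8%, and *Il23r* in 13.3% and 9.39%. *Il17f* was seen in 2 of the 90 cells and in 0 of the 213 (0% to 1.72%).

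As a list, 7 of the 8 members had 20 or more UMIs in gamma-delta-like cells, and *Il22* did not. Of these, 2 were higher under anti-CD9 Ab and 5 were lower, and the median log2 ratio was −0.13, against −0.11 over the 9441 genes. A ratio below 0 was found for 60.8% of those genes, so that 5 of 7 lower members lay close to the background. *Il17a* and *Il17f* were at least 2-fold higher, as were 2.9% of all genes, and no member was at least 2-fold lower, against 6.39% of all genes. In CD4-like cells, 2 of 7 members were higher (*Il23r* and *Il17ra*) and 5 lower. None was at least 2-fold higher there (2.71% of 9765 genes were), and *Il17f* and *Blk* were at least 2-fold lower (3.78% of genes were). These values changed without predicted doublets, where *Blk* had 10 and 4 UMIs and a ratio of −0.23 (−2.36 to 1.56), *Scart1* had 0.67 (−0.40 to 1.71), and of 6 members with enough UMIs 2 were higher and 4 lower, with 1 at least 2-fold higher and 2 at least 2-fold lower.

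**Figure D3:**
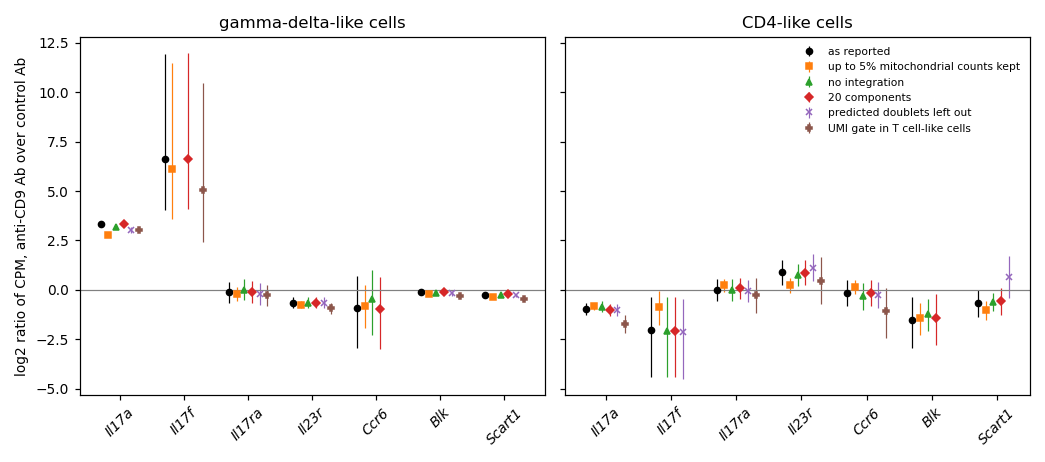
Log2 ratio of CPM (anti-CD9 Ab over control Ab) of 7 members in gamma-delta-like cells (left) and CD4-like cells (right), as reported and under 5 other ways of processing the cells. Bars are 95% intervals for counting error, and a missing point means that a library had 0 UMIs or too few were counted. *Il17a* stays between 2.80 and 3.35 in gamma-delta-like cells and between −1.74 and −0.83 in CD4-like cells, and *Il23r*, *Blk* and *Scart1* stay below 0 in gamma-delta-like cells under all 6.

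The UMIs of the program were distributed differently over the cell classes of the libraries. Of 1482 *Il17a* UMIs in kept cells under control Ab, 42.3% (39.8 to 44.9) lay in gamma-delta-like cells and 34.5% (32.1 to 37.0) in CD4-like cells. Of 3841 under anti-CD9 Ab, 72.4% (71.0 to 73.8) and 2.99% (2.48 to 3.58) did. Over all kept cells the level was 59.4 CPM (56.4 to 62.5) and 169 CPM (164 to 175), a log2 ratio of 1.51 (1.43 to 1.60). That level combines how many cells a class has with the UMIs per cell: gamma-delta-like cells were 16.9% and 3.45% of kept cells, and each held 0.496 and 8.80 *Il17a* UMIs on average. For *Blk* and *Scart1* the level over all kept cells was lower under anti-CD9 Ab, at log2 ratios of −0.76 and −0.96, where the share of gamma-delta-like cells was lower too. The quality limits removed 47.5% of *Blk* UMIs under control Ab and 64.1% under anti-CD9 Ab, and 46.1% and 59.5% of *Scart1* UMIs. The part of this removal in both ratios was not tested.

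Outside the named T cell classes, part of the *Il17a* UMIs lay in cells with *Trdc*. The 3 unnamed T sub-clusters, of which 1 was led by cell cycle genes and 1 by microglial genes, held 214 and 291 UMIs, or 500 CPM (436 to 572) and 425 CPM (378 to 477), and 1 cell under control Ab held 124 of them. The B cell-like class under anti-CD9 Ab held 142 UMIs, of which 139 were in 1 cell, and both of its *Il17a* cells had a *Trdc* UMI and were predicted doublets. An unnamed cluster led by *Arg1*, *Cxcl13* and *Hmox1* held 338 *Il17a* UMIs in 93 of 1231 cells under anti-CD9 Ab. It held 1 UMI in 29 cells under control Ab, too few cells for a comparison. Cell classes in order of *Il17a* level under anti-CD9 Ab were gamma-delta-like, B cell-like, unnamed T sub-clusters, unnamed clusters at 131 CPM (119 to 145) and CD4-like, and the intervals of the last pair overlapped. Under control Ab the order was unnamed T sub-clusters, gamma-delta-like, CD4-like and B cell-like at 58.1 CPM (23.4 to 120). Both orders rest on single cells. Without the highest cell of each library, unnamed T sub-clusters were at 212 CPM (170 to 260) under control Ab, below gamma-delta-like cells and level with CD4-like cells, and at 277 CPM (239 to 320) under anti-CD9 Ab. B cell-like cells were then at 8.65 and 14.4 CPM. Next under control Ab came endothelial or mural cell-like cells with 2 UMIs and unnamed clusters at 22.6 CPM (17.5 to 28.8) from 66 UMIs. The other classes were at 15.5 CPM or less, down to 0 in CD8-like cells.

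**Figure D4:**
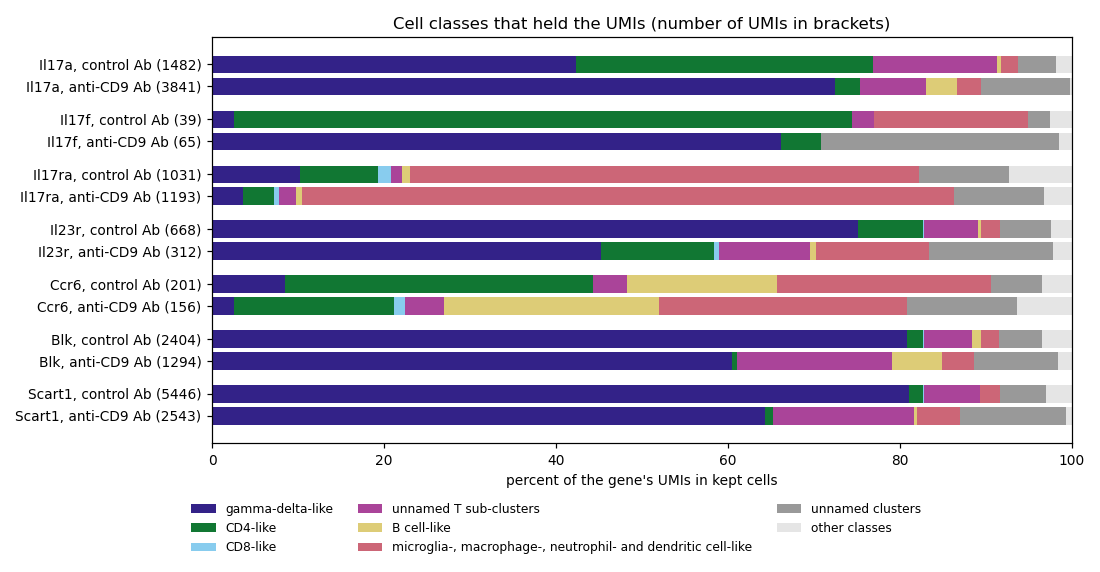
Share of each gene's UMIs in kept cells (percent, bars from 0 to 100) by cell class, for control Ab and anti-CD9 Ab, with the number of UMIs in brackets. For *Il17a*, gamma-delta-like cells hold 42.3% and 72.4% and CD4-like cells 34.5% and 2.99%, and most *Il17ra* UMIs lie in myeloid classes in both libraries.

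In myeloid cells *Il17ra* was the member with the most UMIs. Without thinning, *Il17ra* was detected in 18.98% of 1928 microglia-like cells under control Ab and 13.36% of 876 under anti-CD9 Ab. These cells held 9968166 and 3128130 UMIs of all genes, at median depths of 3124.5 and 3355.5 UMIs per cell. Both shares were taken at full depth, and the part of depth in them was not tested. The level of *Il17ra* was 47.8 CPM (43.6 to 52.2) and 44.4 CPM (37.4 to 52.5), from 476 and 139 UMIs. The log2 ratio was −0.10 (−0.39 to 0.17), within counting error. The microglia-like cluster led by *Lpl*, *Cst7* and *Spp1* had 33.4 and 18.9 CPM, from 758 and 228 cells. That led by *Siglech* and *P2ry12* had 66.4 and 56.3 CPM, from 1105 and 588 cells. The class ratio combines these clusters in unlike shares. In macrophage-like cells *Il17ra* was at 40.7 CPM (33.3 to 49.2) under control Ab and 51.0 CPM (45.8 to 56.7) under anti-CD9 Ab. The ratio there, 0.33 (0.01 to 0.65), was barely above 0, and its interval spanned 0 with up to 5% mitochondrial counts (−0.13 to 0.57), with 20 components (−0.03 to 0.64) and without predicted doublets (−0.13 to 0.81).

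In neutrophil-like cells *Il17ra* was at 251 CPM (146 to 402) from 61 cells under control Ab and at 114 CPM (103 to 127) from 2596 cells under anti-CD9 Ab. Its log2 ratio was −1.13 (−1.83 to −0.34). Neutrophil markers summed to 9698 and 17667 CPM in this class and macrophage markers to 10067 and 2611 CPM. The part of this difference in the ratios of the class was not tested. The class held 2 clusters, in unlike shares. The cluster led by *Retnlg* and *Cxcr2* had 293 and 213 CPM, from 50 and 1209 cells, a ratio of −0.45 (−1.16 to 0.35). The cluster led by *Ccl4* and *Rsad2* had 0 UMIs in 11 control cells, too few to compare, and 43.0 CPM in 1387 cells under anti-CD9 Ab.

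The ligand and marker genes were near background in myeloid cells. Microglia-like cells held 14 and 6 *Il17a* UMIs, 1.40 and 1.92 CPM. *Scart1* had 93 and 4 UMIs there, a log2 ratio of −2.87 (−4.77 to −1.46), *Ccr6* had 41 and 5, and *Blk* had 33 and 3. Without predicted doublets *Scart1* had 22 and 3 UMIs and a ratio of −1.13 (−3.51 to 0.61), *Ccr6* a ratio of −1.62 (−3.98 to 0.06), and *Blk* 9 and 1 UMIs, so that all 3 intervals spanned 0. All 10 T cell markers were detected in the same microglia-like cells in both libraries, at a summed 240 and 48.0 CPM, and gamma-delta markers at 25.7 and 7.67 CPM, with *Trgv2* at 0 in the second. Their part in the lower *Scart1*, *Blk* and *Ccr6* was not tested. Macrophage-like cells held 10 and 81 *Il17a* UMIs, a log2 ratio of 1.62 (0.67 to 2.73). The 81 UMIs lay in 15 cells, of which 8 had a *Trdc* UMI and 9 were predicted doublets. Without the doublets 0 and 6 UMIs were left.

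By count, 5 members had 20 or more UMIs in microglia-like cells. *Il17a* was higher, at 0.45 (−1.22 to 1.92) and at −0.60 without integration, the other 4 were lower, and none was at least 2-fold higher, against 4.88% of 12898 genes, while *Ccr6*, *Blk* and *Scart1* were at least 2-fold lower, against 6.33%. In macrophage-like cells, 4 of 5 members were higher and *Blk* was lower, while 39.1% of 11422 genes were higher. *Il17a* alone was at least 2-fold higher (7.53% of genes were) and none was at least 2-fold lower (13.8% of genes were). These counts changed with the processing. *Scart1* went from 0.17 to −0.85 (−1.33 to −0.35) with up to 5% mitochondrial counts and −1.38 (−2.04 to −0.67) without integration, and *Blk* from −0.44 to −1.40 and −1.92. Without predicted doublets *Il17ra* was the 1 member left with 20 or more UMIs. In neutrophil-like cells 1 member, *Il17ra*, had enough UMIs and was at least 2-fold lower, as were 25.2% of 7665 genes, while 14.2% were at least 2-fold higher.

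Another 71 genes of the pathway were grouped in 10 lists by role. In gamma-delta-like cells the transcription factors of the program were mostly higher, in 7 of 9 genes with 20 or more UMIs, while 39.2% of all 9441 genes were higher. *Batf*, an AP-1 factor, had a log2 ratio of 1.36 (1.01 to 1.72), *Irf4* 0.64 (0.09 to 1.18) and *Ahr*, a ligand-activated factor, −1.08 (−2.23 to −0.08). Of the receptors for inducing cytokines, 2 of 6 were higher and 4 lower. *Il1r1*, the IL-1 receptor, was at 343 and 473 CPM, a ratio of 0.46 (0.29 to 0.64), *Il12rb1*, the chain that pairs with IL-23R, had 0.43 (−0.05 to 0.91), and *Il18r1* had −0.90 (−1.09 to −0.72). So *Il1r1* was higher and *Il23r* lower, while *Il12rb1*, the other chain of the IL-23 receptor, had an interval that spanned 0.

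Other surface genes of type 17 cells were higher in 2 of 7 cases and lower in 5. For this count and the next ones, 39.2% of all 9441 genes in gamma-delta-like cells were higher. *Cd69*, an activation antigen, had a log2 ratio of −0.91 (−1.20 to −0.63), *Kcnk1* −0.67 (−1.13 to −0.24) and *Cd44* 0.61 (0.44 to 0.78). Of the other type 17 cytokines, 1 of 4 was higher: *Areg*, an epidermal growth factor receptor ligand, was at 21.3 and 134 CPM, a ratio of 2.65 (2.15 to 3.19). *Tnf* had −0.09 (−0.29 to 0.11) and *Csf2*, which encodes GM-CSF, −0.77 (−1.69 to 0.07). Genes of type 1 T cells were higher in 4 of 5 cases, with *Gzmb* at 25.2 and 816 CPM (5.02, 4.61 to 5.45), *Ifng* at 27.1 and 168 CPM (2.63, 2.18 to 3.10) and *Ccl5* at 59.5 and 130 CPM (1.12). *Cxcr3*, a chemokine receptor of the same list, was lower, at 42.1 and 20.9 CPM.

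In the receptor lists, *Il17re*, the partner chain for IL-17C, was at 137 and 87.9 CPM in gamma-delta-like cells, a log2 ratio of −0.64 (−1.02 to −0.28). It was the only other receptor chain of 4 with enough UMIs, and no other IL-17 family ligand of 4 had enough. Signalling genes were higher in 5 of 8 cases, with *Nfkbiz* at 1.22 (0.55 to 1.88), *Zc3h12a* at 1.09 (0.30 to 1.87) and *Tnfaip3* at 0.89 (0.44 to 1.33). Both inducing cytokines with enough UMIs were higher, *Tgfb1* at 0.39 (−0.01 to 0.78) and *Il1b*, with 2 and 31 UMIs. *Il1b* is known as a myeloid gene, and it was at 34.1 CPM here under anti-CD9 Ab, against 9049 CPM in neutrophil-like cells. It was also higher in CD4-like cells, with 1 and 52 UMIs, and in astrocyte-like cells, with 4 and 53. All 5 of the measured IL-17 target genes were higher (39.2% of all genes were), with *Cxcl2* at 2 and 60 UMIs and *Saa3* at 11.6 and 245 CPM. *Saa3* and *Cxcl2* are known as myeloid and stromal genes, and *Saa3* reached 17944 CPM in macrophage-like cells of the same library. Of 10 neutrophil markers, 9 were detected in gamma-delta-like cells in each library (*Cxcl3* at 0 in the first, *Cxcr2* in the second), and their summed level was 18.4 and 147 CPM. Their part in the higher target genes and in the higher *Il1b* was not tested.

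**Figure D5:**
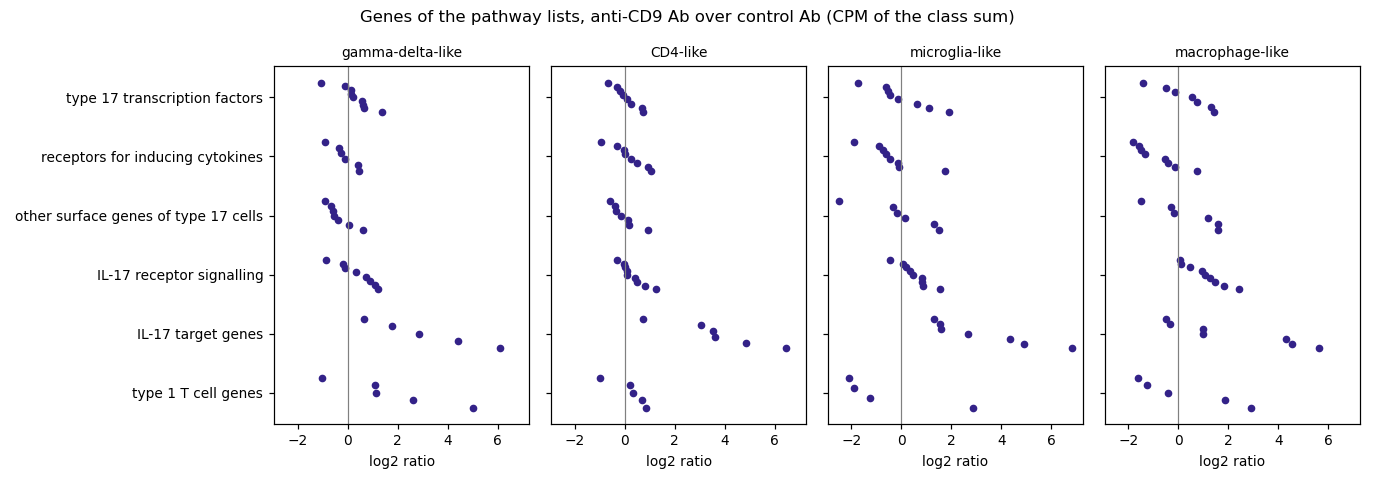
Log2 ratio of CPM (anti-CD9 Ab over control Ab) of the genes in 6 of the pathway lists, for gamma-delta-like, CD4-like, microglia-like and macrophage-like cells. Each point is 1 gene with 20 or more UMIs over both libraries and at least 1 UMI in each, and points are staggered vertically for legibility. IL-17 target genes lie above 0 in 5 of 5, 6 of 6 and 7 of 7 genes in the first 3 classes, while surface genes and receptors for inducing cytokines lie on both sides of 0.

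CD4-like cells were the other *Il17a* source under control Ab, and their pathway genes split evenly in the transcription factor list, with 4 of 8 higher (44.2% of 9765 genes were). *Batf* had a log2 ratio of 0.74 (0.47 to 1.01). *Il7r*, the IL-7 receptor, had 1.06 (0.95 to 1.17) and *Il1r1* 0.51 (0.11 to 0.89), among 5 of 8 receptors for inducing cytokines that were higher. IL-17 target genes were higher in 6 of 6 cases here too (44.2% of all genes were), led by *Cxcl2* with 2 and 79 UMIs, beside neutrophil markers at a summed 43.8 and 202 CPM, with *Trem1* at 0 in the first library. The part of these markers was not tested.

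In microglia-like cells, IL-17 target genes were higher under anti-CD9 Ab in 7 of 7 cases, while 50.8% of 12898 genes were higher. *Cxcl2*, a neutrophil chemoattractant, was at 3.71 and 416 CPM (log2 ratio 6.81, 6.34 to 7.32), *Saa3* at 121 and 3595 CPM (4.89) and *Lcn2*, lipocalin 2, at 14.4 and 290 CPM (4.33). Neutrophil markers were all 10 detected in the same cells, at a summed 512 and 996 CPM, and their part was not tested. Signalling genes were higher in 8 of 9 cases, with *Cebpb* at 163 and 475 CPM (1.55, 1.44 to 1.65), *Cebpd* at 0.86 and *Tnfaip3* at 0.81. *Traf3ip2*, the adaptor of the receptor itself, had 61 and 14 UMIs and an interval from −1.40 to 0.40. Inducing cytokines were higher in 3 of 5 cases, with *Il1b* at 27.3 and 242 CPM (3.15, 2.94 to 3.35), *Il1a* at 1.12 and *Tgfb1* at −0.66.

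Macrophage-like cells differed in the same way for most of these genes. Microglia markers summed to 6805 and 1293 CPM in this class and neutrophil markers to 536 and 1196 CPM. Predicted doublets were 29.6% and 24.9% of its cells. Their part in the ratios of this class, here and in the other paragraphs, was not tested. All 9 signalling genes were higher (39.1% of all genes were), with *Cebpb* at 314 and 1686 CPM (2.42, 2.32 to 2.53), *Tnfaip3* at 1.81 and *Cebpd* at 1.47. Of the target genes, 6 of 8 were higher, with *Cxcl2* at 8.06 and 398 CPM (5.63), *Saa3* at 760 and 17944 CPM (4.56) and *Cxcl1* at 0 and 57 UMIs. The monocyte chemoattractants *Ccl2* and *Ccl7* were lower, at −0.33 (−0.50 to −0.17) and −0.51 (−0.86 to −0.15), whereas in microglia-like cells they were higher, at 1.59 and 2.67. Inducing cytokines were higher in 5 of 6 cases, with *Il1b* at 94.8 and 1306 CPM (3.78, 3.60 to 3.97), *Il1a* at 1.78 and *Tgfb1* at −0.51.

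Among the inducing cytokines, most UMIs of *Il1b*, *Il1a* and *Il23a* under anti-CD9 Ab lay in neutrophil-like cells, which held 29017 of 43897 *Il1b* and 3653 of 5720 *Il1a* UMIs in kept cells. *Il23a*, the specific subunit of IL-23, had 1 UMI in kept cells under control Ab and 215 under anti-CD9 Ab, of which 187 (87.0%) lay in 84 neutrophil-like cells. The level in neutrophil-like cells was 58.3 CPM under anti-CD9 Ab, and the 61 control cells held 0 UMIs. The 84 cells were 3.24% of their class, and 0 of 61 cells allows a share of up to 5.87%. A difference within this class could therefore not be told from an equal level. *Il1b* in neutrophil-like cells had 84 UMIs under control Ab and 29017 under anti-CD9 Ab, or 1240 and 9049 CPM, a log2 ratio of 2.87 (2.56 to 3.19), and *Il1a* had 2 and 3653 UMIs. In the same cells, IL-17 target genes were higher in 5 of 8 cases (41.1% of 7665 genes were), with *Saa3* at 3 and 4577 UMIs, *Cxcl1* at 0 and 507 and *Cxcl2* at 900.4 and 18233 CPM, and the granule genes *S100a8*, *S100a9* and *Lcn2* were lower. Signalling genes were higher in 5 of 8 cases, with *Tnfaip3* at 3 and 1930 UMIs, *Nfkbiz* at 10 and 2752 and *Cebpb* at 1078 and 4594 CPM. The control side of each rests on 61 cells, with the unlike marker sums given above for this class.

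Genes of the T cell lists followed no single direction in the myeloid classes. In microglia-like cells, transcription factors were higher in 3 of 8 cases, receptors for inducing cytokines in 1 of 8, other surface genes in 3 of 6 and type 1 genes in 1 of 5. In macrophage-like cells the counts were 4 of 7, 1 of 8, 3 of 6 and 2 of 5. In neutrophil-like cells they were 6 of 6, 0 of 4, 3 of 6 and 1 of 1. Of all genes, 50.8% were higher in microglia-like, 39.1% in macrophage-like and 41.1% in neutrophil-like cells. The genes farthest from 0 in microglia-like cells included *Cxcr6* (−2.48), *Irf4* (−1.73), *Il18r1* (−1.90) and *Ccl5* (2.85), and in macrophage-like cells *Tgfbr2* (−1.80), *Cd69* (1.59), *Batf* (1.41) and *Ccl5* (2.90). *Tnf* was higher in both, at 1.19 and 1.15. T cell markers summed to 240 and 48.0 CPM in microglia-like cells and to 433 and 136 CPM in macrophage-like cells. Their part in the lower genes of the T cell lists was not tested. Without predicted doublets, type 1 genes with 20 or more UMIs in microglia-like cells went from 5 to 2. Those at least 2-fold lower went from 4 to 1, and 1 was higher. The further genes named by the same rule in microglia-like cells were *Batf* (1.10), *Il1r1* (−0.91), *Il7r* (−0.73), *Cd44* (1.49), *Cd69* (1.32) and *Cxcr3* (−2.12). In macrophage-like cells they were *Ahr* (1.30), *Stat3* (0.75), *Il18r1* (−1.57), *Tgfbr1* (−1.48), *Ltb4r1* (1.57), *Cxcr6* (−1.48), *Gzmb* (1.85) and *Cxcr3* (−1.60). In neutrophil-like cells they were *Batf* with 1 and 882 UMIs, *Ahr* with 0 and 50, *Cd69* with 0 and 717, *Stat3* (0.55), *Tgfbr1* (−1.67), *Tgfbr2* (−1.17), *Il18r1* (−1.15), *Tmem176b* (−2.03), *Tmem176a* (−1.73), *Tnf* (3.26) and *Ccl5* (2.97). Without predicted doublets, IL-17 target genes were higher in 5 of 5 cases in gamma-delta-like, 6 of 6 in CD4-like, 7 of 7 in microglia-like, 5 of 7 in macrophage-like and 5 of 8 in neutrophil-like cells. No share over all genes was computed for that setting.

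The genes whose level was most like that of *Il17a* were ranked by Pearson correlation of log2(CPM + 10) over 28 sums of class and library, among 11835 genes. These sums share 2 libraries and their depth, and the values are a description. *Il1r1* came first (0.93), followed by *Gm49890* (0.86), *Blk* (0.83), *1700012B07Rik* (0.83), *Abi3bp* (0.83), *Tnfrsf25* (0.82), *Crmp1* (0.82), *Areg* (0.81), *Trgc1* (0.81) and *A130023I24Rik* (0.81). *Trdc* ranked 12, *Scart1* 22, *Il23r* 28, *Ccr6* 711 and *Il17ra* 7330.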

How the data were processed

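The scRNA-seq libraries were made with 10x 3' chemistry and deposited by the authors as filtered matrices of raw UMI counts per gene and barcode. The submitters' processing notes name Cell Ranger 8.0.0 and GRCm39, whereas the study's methods name another version and build. The depth was 38042608 UMIs under control Ab and 40825201 under anti-CD9 Ab. Cells with 200 to 7500 genes and at most 2% mitochondrial counts were kept. They were scaled to 10000 counts, integrated by anchors on 2000 variable genes without the listed genes, and clustered on 30 components at resolution 0.8 in Seurat 5.3.0 (R 4.3.3, Matrix 1.6.5). T cell-like clusters were clustered again on 20 components at resolution 0.3. Classes were named from marker lists. A cluster with under 3 raised markers, or with under 50% of a list raised, stayed unnamed. So did a cluster with over 50% predicted doublets. The same held where another cell type had more markers among the 10 leading genes. Clusters with raised T cell markers were clustered again also where NK cell genes led them. CD8-like cells were gated by UMIs within the NK cell-like and unnamed T sub-clusters because no sub-cluster took that name. Predicted doublets (0.8% per 1000 barcodes) were marked with scikit-learn 1.9.0 and not removed. The 54 shared barcodes were kept.

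Raw UMIs were summed per library and class in Python 3.11.15 (pandas 2.3.3, NumPy 2.4.6 and SciPy 1.17.1) and drawn with Matplotlib 3.10.9. Ratios have exact conditional Poisson intervals and shares exact Clopper-Pearson intervals, at 95%. For levels, a count of 0 was read as at most 3. Cells were thinned to 1000 UMIs for the shares described as thinned or at equal depth. Other shares of cells with a UMI used the full depth. Genes with fewer than 20 UMIs over both libraries in a class were left out of counts, and genes at least 2-fold apart were counted as calls. All 8 members were named. In each pathway list, in gamma-delta-like and the named myeloid cells, the 3 genes farthest from a ratio of 1 among those with 50 or more UMIs were named, together with *Il1r1*, *Il23a* and *Il1b*. Some genes of that rule are not reported here. The list genes given for CD4-like cells, *Cxcr3* in gamma-delta-like cells, *Traf3ip2*, *Ccl2*, *Ccl7*, *S100a8*, *S100a9* and *Lcn2* in other classes were chosen after their values were seen. The members and lists were chosen with earlier results of these data known. Each antibody had a single library, so that no test could be made.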

Additional observations from a re-analysis of the deposited data

Results flagged for a closer look

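*Il17a* was drawn out because its ratio had opposite signs in both T cell classes. The log2 ratio was 3.33 in gamma-delta-like cells and −0.98 in CD4-like cells. The difference between the classes was not tested, since each antibody had 1 library.

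*Il17a* was also found in barcodes that the quality limits removed and that the main comparisons did not use. It was at 186 CPM in 6011 removed barcodes under anti-CD9 Ab and at 79.3 CPM in 4778 under control Ab, a log2 ratio of 1.23 (1.13 to 1.33). The setting with up to 5% mitochondrial counts, quoted above, did use part of them. It kept 11690 of 12245 barcodes under control Ab and 14455 of 15173 under anti-CD9 Ab.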

How the results depend on the processing

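Of 74 values of the main comparisons computed under alternatives, 50 were counted as the same and 24 as moved. A value counted as moved when it lay beyond its counting interval. The numbers of lower members in gamma-delta-like cells have no such interval. All of those were counted as the same, also where 5 became 4. Most of the 74 values were shares or counts, which cannot change sign. The log2 ratios among them kept their sign. Other ratios of single members did change sign. With the 5% limit they were *Ccr6* in CD4-like cells (0.13), *Il17ra* (−0.11) and *Il23r* (−1.05) in CD8-like cells, and *Il23r* (−0.13) and *Scart1* (−0.85) in macrophage-like cells. Without integration they were *Il17ra* in gamma-delta-like (0.01), *Il17a* in microglia-like (−0.60) and *Scart1* in macrophage-like cells (−1.38). Without predicted doublets they were *Il17ra* (−0.05) and *Scart1* (0.67) in CD4-like and *Scart1* in macrophage-like cells (−0.75), and with the UMI gate *Il17ra* in CD4-like cells (−0.24). The *Il17a* log2 ratio in gamma-delta-like cells, 3.33, was 2.80 with up to 5% mitochondrial counts, 3.19 without integration, 3.03 without predicted doublets, 3.04 with a UMI gate, 2.22 without the 5 highest cells of each library and 2.996 with the *Trdc* cells of unnamed sub-clusters added. The ratio over all kept cells, 1.51, was 1.40 with the 5% limit, 1.29 without doublets and 0.76 without the highest cells. The *Il17ra* ratio in macrophage-like cells, 0.33, was 0.72 without integration. Gamma-delta-like cells with *Il17a*, 19.9% and 29.7%, were 10.7% and 18.0% when thinned to 500 UMIs and 26.1% and 41.5% unthinned. The gamma-delta-like share of *Il17a* UMIs under control Ab, 42.3%, was 46.3% with the 5% limit and 45.6% without doublets. Under anti-CD9 Ab, 72.4%, it was 61.7% without integration, 78.9% without doublets, 74.8% with the gate, 51.6% without the highest cells and 79.4% with the added cells. The share of T cell-like cells was 45.5% under control Ab with the added cells, and 37.3% with the gate and 39.6% with the added cells under anti-CD9 Ab. Except where the setting itself adds or leaves out cells, the cause was not tested. The settings that left out the highest cells or added *Trdc* cells, and the list counts without predicted doublets, were chosen after seeing the data.

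On the CPM scale the median log2 ratio of genes with 50 or more UMIs was −0.10 in gamma-delta-like, −0.05 in CD4-like, 0.01 in microglia-like, −0.13 in macrophage-like and −0.13 in neutrophil-like cells, which median-of-ratios scaling takes out. With that scaling the *Il17a* ratio in gamma-delta-like cells was 3.43, and 5 of 7 members were below 0, as before. No paired analysis was possible because each antibody had 1 library, and for the same reason no replicate was left out. *Il22*, *Ccr6* in gamma-delta-like cells and *Il17f* rest on few UMIs, and the 61 neutrophil-like control cells limit every ratio in that class.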
